A study of Mus musculus with 6 samples.

Results

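The nuclear-encoded genes of the mitochondrial respiratory chain were followed in lungs of mouse embryos that were wild type or carried a Smad1 conditional knockout (CKO) confined to the lung epithelium. Members were taken by symbol from the platform annotation, by the prefixes Nduf, Uqcr, Atp5 and Cox4 to Cox8, together with Sdha, Sdhb, Sdhc, Sdhd and Cycs. This gave 91 of the 18193 genes measured, and the brightest probe set on average stood for each gene. They comprised 36 complex I genes, 8 complex I assembly factors (Ndufaf), 4 genes of complex II, 8 of complex III, cytochrome c (Cycs), 17 of complex IV and 17 of complex V. By their prefix the members include a few that are not subunits, such as the assembly factors.

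All 6 embryos were of strain C57/BL6 at stage E18.5, just before birth, and RNA came from the whole left lobe of the lung. The 3 wild type and 3 Smad1 CKO embryos formed 3 pairs, and the labels give 1 Affymetrix expression array per embryo. The sources used here do not give the promoter that drives the recombinase, and the genotype of the wild type embryos at the floxed alleles is not stated beyond the words wild type. Values below are log2 of the deposited intensity, a brightness per probe set, and differences are CKO minus wild type within a pair on that log2 scale. A brightness is not a copy number, so levels are compared between arrays for a gene and not between genes.

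The respiratory chain sits in the inner mitochondrial membrane. Complexes I and II pass electrons from NADH and succinate to ubiquinone, complex III passes them on to cytochrome c, and complex IV hands them to oxygen. The proton gradient that this builds drives ATP production by complex V. Mitochondrial DNA encodes a few core subunits, and the rest are read from nuclear genes and imported. In the lung, the type 2 cells that make surfactant are rich in mitochondria, and the fetal lung works at low oxygen until the first breath.

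Respiratory chain genes differed little between genotypes in pairs 1 and 2 and were much lower on the CKO array in pair 3. The 91 members had median differences of -0.11, 0.06 and -1.42 in pairs 1, 2 and 3. The medians over all genes were -0.09, 0.00 and -0.16. In pairs 1 and 2, 76 and 86 of the 91 members lay within 0.3 of zero, against 9 in pair 3. These are 83.5%, 94.5% and 9.89% of the members, beside 43.9%, 84.1% and 25.8% of all genes. The same break between pairs 1 and 2 on one side and pair 3 on the other was seen in every complex.

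**Figure D1:**
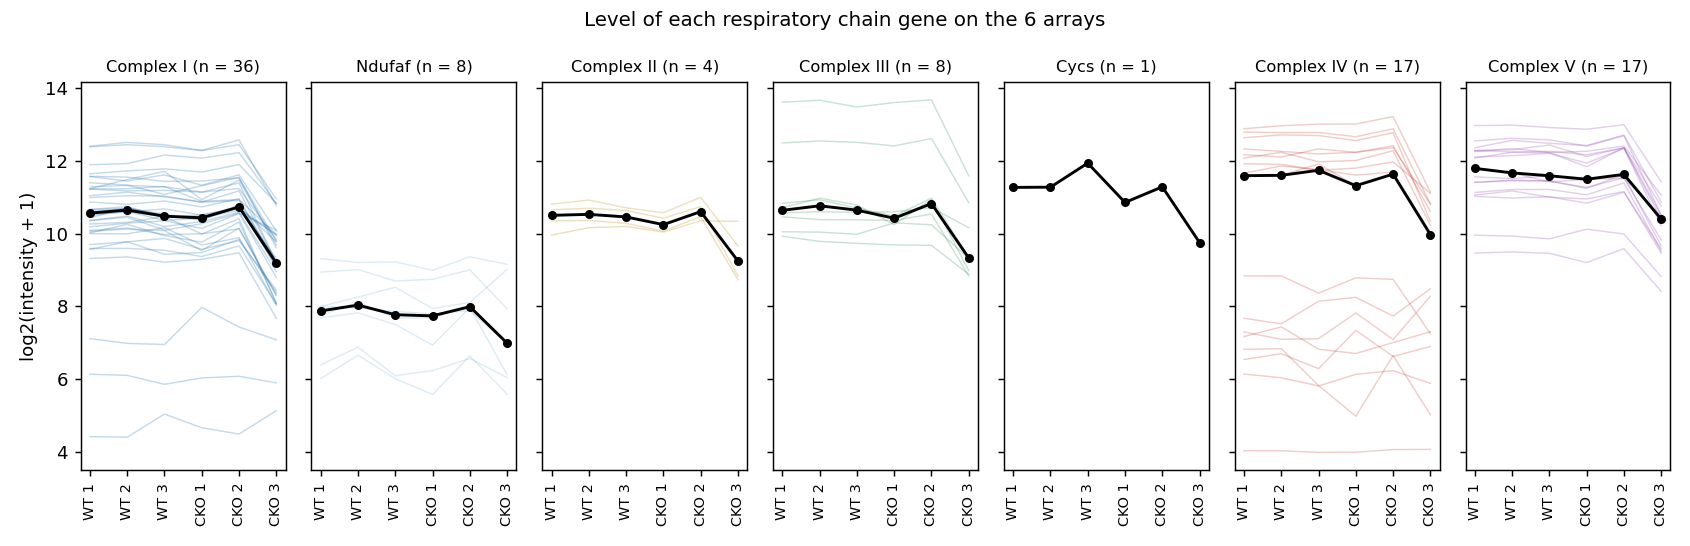
Level, log2(intensity + 1), of each respiratory chain gene on the 6 arrays (WT, wild type), with a panel for each class, a coloured line for each gene and black points for the class median. Over all 91 genes the median lies at 10.66, 10.71 and 10.63 on the wild type arrays, at 10.48 and 10.75 on CKO 1 and CKO 2, and at 9.32 on CKO 3.

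The array CKO 3 stood apart from the other 5 in ways that reached beyond the respiratory chain. The control probe set for 18S ribosomal RNA read 2887 there and 242.5 to 297.2 on the others, and the 3′ actin control read 5820 against 18445 to 20900. The ratio of 3′ to 5′ control signal was 1.56 for actin there against 1.21 to 1.39, and 1.01 for Gapdh against 0.886 to 0.936. Among the brightest 6065 genes, 5456 had their lowest value on CKO 3, and their median difference in pair 3 was -1.09. The medians of those genes in pairs 1 and 2 were -0.29 and -0.03. The part of these array properties in the respiratory chain result was not tested, and the results below are given with pair 3 and without it. CKO 1 differed from the other 5 arrays in Xist, at 10.9 against 6.07 to 7.70, and in the Y-linked Eif2s3y, at 3.78 against 7.06 to 9.04. Its pair mate WT 1 read 6.23 and 8.66, so sex as read from these genes and genotype cannot be told apart in pair 1. The 7.70 for Xist and the 7.06 for Eif2s3y were both on CKO 3. Smad1 itself was measured by 3 probe sets, which differed by 0.08 to 0.20 in pair 1, by 0.53 to 0.62 in pair 2 and by -1.52 to -0.48 in pair 3. Smad1 RNA was therefore not lower on CKO 1 and CKO 2 than in their pair mates. The sources used here do not say whether these probes lie in the deleted part, and the lobe holds other cells that keep the gene, so CKO below names the arrays labelled as such.

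The rank of the members within each array was also taken. The median member stood at percentile 95.6, 95.7 and 96.1 of all probe sets on the wild type arrays, and at 95.9, 96.0 and 95.4 on CKO 1, CKO 2 and CKO 3. These percentiles, and those below, are among all 45037 probe sets and not among genes. A median so near the top has little room to rise, and dimmer members did change rank. Cox7c went from percentile 59.5 to 23.7 in pair 1, and in pair 3 Ndufaf1 went from 70.2 to 45.6 and Cox6a2 from 65.0 to 87.5. Genes were ordered by brightness into 3 bands of equal size, and 76 members belonged to the brightest band, with medians of -0.12, 0.07 and -1.51 over the 3 pairs. The 9 members in the middle band had a median of 0.13 in pair 3, and the 6 in the dimmest band 0.06. Set beside other genes of the same brightness, the members were near them in pair 3. Between 10 and 11 on the log2 scale the 27 members had a median of -1.36 and the 957 other genes -1.29. Between 12 and 14, the 12 members had a median of -1.66 and the 208 other genes -1.86. In pair 1 the members lay above the other genes in these 2 ranges, at -0.13 against -0.28 and at -0.09 against -0.17. From 2 to 6 the 2 members lay below the other genes in pair 1, at 0.10 against 0.25.

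**Figure D2:**
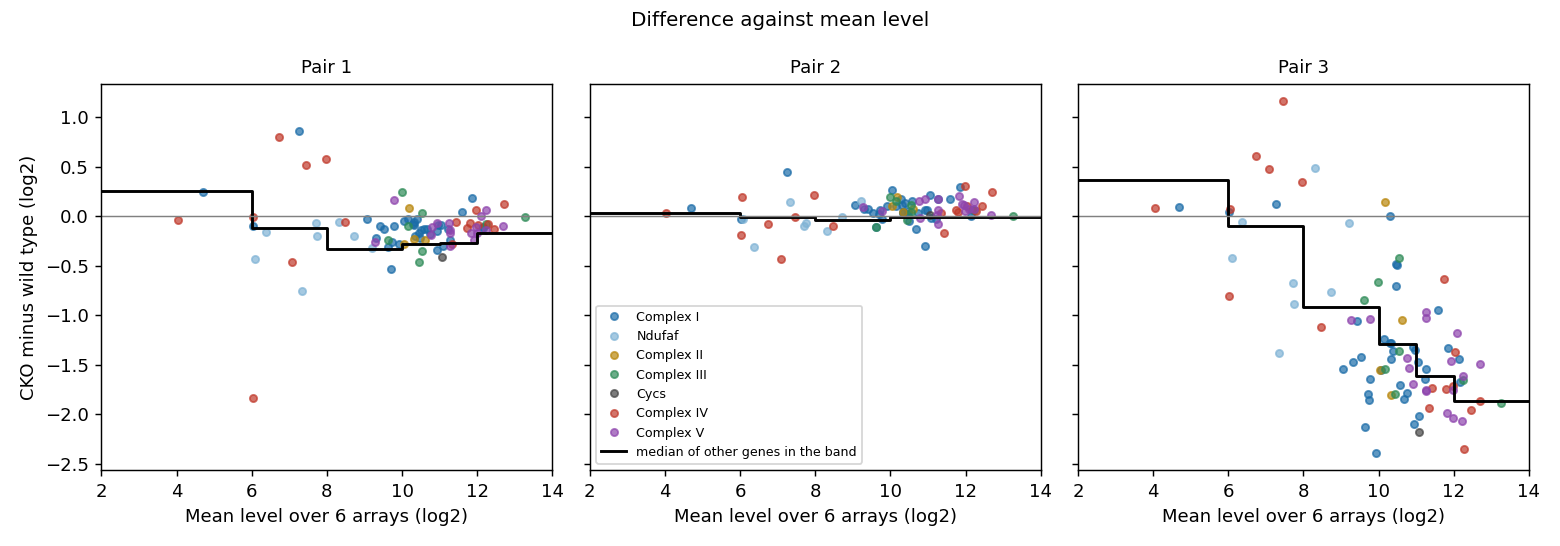
Difference between CKO and wild type (log2, vertical axis) against mean level over the 6 arrays (log2, horizontal axis) in each pair, with a point for each of the 91 respiratory chain genes, coloured by class, and a black stepped line for the median of the other genes in bands of brightness. In pair 3 the line goes down to -1.86 in the brightest band and the members lie around it, whereas in pair 2 line and members lie close to zero.

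Genotype was tested gene by gene with limma, with the pair as a block and Benjamini-Hochberg adjustment over 45037 probe sets. None of the 91 members passed an adjusted p of 0.05 (smallest 0.367), beside 0.00222% of all probe sets. At an unadjusted p under 0.05, 1 member was lower (Cox7c) and 0 were higher, beside 9.96% and 4.96% of all genes. Without pair 1 these counts were 0 and 0 (1.76% and 0.17% of all genes). Without pair 2 they were 13 and 2 (18.7% and 8.58%), and without pair 3 they were 1 and 1 (6.19% and 3.53%). The mean difference over the 3 pairs had a median of -0.48 over the members, -0.09 over all genes and -0.48 over the brightest band of genes. It was -0.04 over the members without pair 3, -0.78 without pair 2 and -0.64 without pair 1.

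The direction of the members followed the pair. In pair 1, 76 of 91 members were lower on the CKO array, in pair 2 it was 25, and in pair 3 it was 79. Of all 18193 genes, 10356, 9163 and 10260 were lower in the 3 pairs. Of the 6065 genes in the brightest band, 5263, 3426 and 5666 were. Past 1.5-fold, pair 1 had 2 members lower and 2 higher, where 13.6% and 12.2% of all genes were. Pair 2 had 0 members past 1.5-fold in either direction, where 1.89% of all genes were lower and 1.29% higher. Pair 3 had 73 members lower and 2 higher, where 36.7% and 17% of all genes were. In the brightest band, 4694 of 6065 genes (77.4%) were lower there and 127 were higher. In all 3 pairs, 20 members were lower and 4 were higher, beside 29.3% and 21% of all genes. CKO 3 was the lowest of the 6 arrays for 76 members, beside 47.9% of all genes and 5456 of the 6065 in the brightest band. All CKO arrays lay below all wild type arrays for 4 members, Ndufa10, Ndufb10, Ndufv3 and Uqcrq, and above them for 0, beside 6.05% and 4.25% of all genes.

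Leaving out pair 3 narrowed the 95% intervals. The median member's interval then reached 0.48 either side of its difference, against 0.81 with all 3 pairs. Over all genes it reached 0.49 without pair 3, so the typical width was nearly the same for members and other genes. The shares that follow therefore show mainly how near zero the mean of pairs 1 and 2 lay. In pair 1, sex and genotype cannot be told apart. Without pair 3, the 95% interval of the difference lay within 1.5-fold in either direction for 57 of the 91 members, or 62.6%, beside 24.3% of all genes and 25.3% of the brightest band. Other lists described below ranged widely in this share. It was 74.5% for the cytosolic ribosome, 64.5% for the mitochondrial ribosome and 58.8% for the citric acid cycle and pyruvate dehydrogenase. It was 35% for protein import and carriers, 13.3% for glycolysis and 10.5% for regulators of mitochondrial biogenesis. For the members, the interval lay within 2-fold for 89, and the other 2 were Cox7c and Ndufs5. No member passed the adjusted threshold in this fit (smallest 0.547), beside 0.0622% of all probe sets. The members also varied little among the wild type embryos. Their median range over the 3 wild type arrays was 0.17, against 0.31 over all genes. It was 0.10 for the cytosolic ribosome, 0.15 for protein import and carriers, 0.21 for the mitochondrial ribosome and 0.33 for glycolysis.

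**Figure D3:**
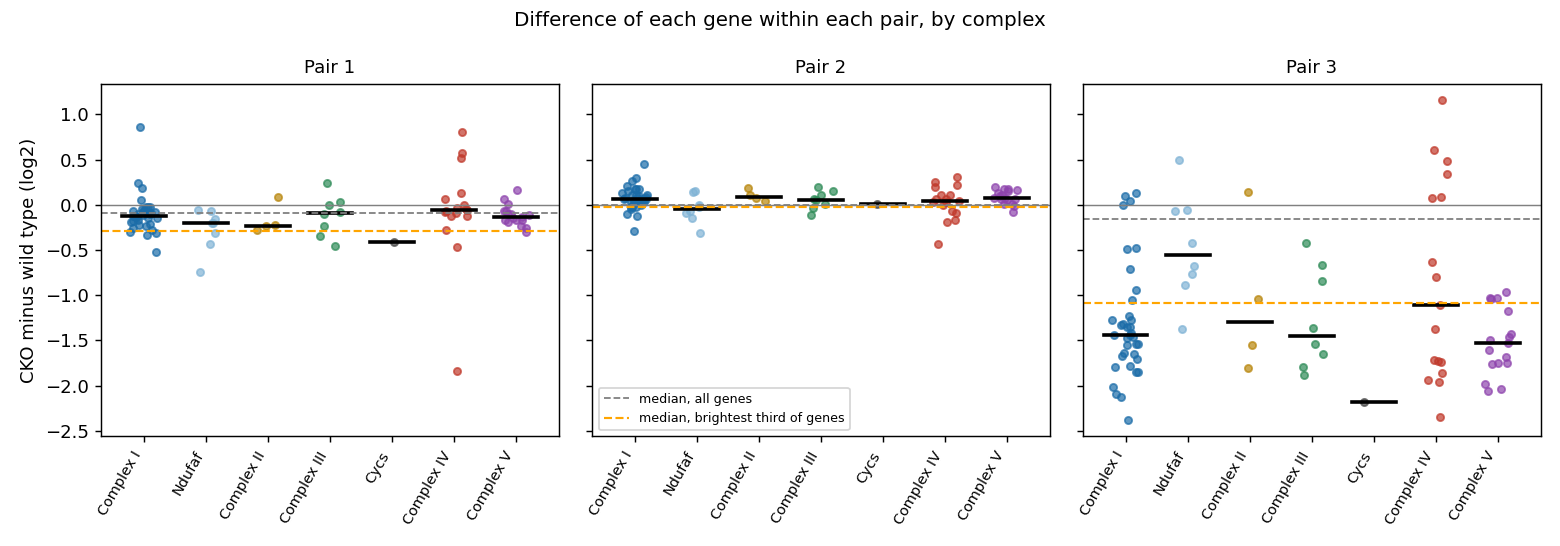
Difference between CKO and wild type (log2) of each respiratory chain gene in pairs 1, 2 and 3, by class, with black bars for class medians and dashed lines for the medians of all genes (grey) and of the brightest band of genes (orange). The 17 genes of complex V lie between -0.30 and 0.16 in pair 1, between -0.08 and 0.20 in pair 2 and between -2.06 and -0.97 in pair 3.

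Complex I, which oxidises NADH and is the largest complex of the chain, had medians of -0.12, 0.07 and -1.44 over its 36 genes in the 3 pairs. Ndufv1, which holds the NADH binding site, read 10.06, 10.12 and 10.08 in the wild type and 9.53, 10.15 and 8.29 in the CKO. CKO 1 and CKO 3 were below every wild type array and CKO 2 was not, and the mean difference was -0.76 ± 0.93 (SD, n = 3 pairs, limma adjusted p = 0.367). Ndufs1, the large iron-sulphur subunit, read 9.57, 9.77 and 9.43 in the wild type and 9.48, 9.85 and 8.38 in the CKO. Its groups overlapped, with CKO 3 lowest. Ndufa12, an accessory subunit of the NADH-oxidising arm, read 10.26, 10.31 and 10.47 in the wild type and 9.99, 10.41 and 8.08 in the CKO. Its difference of -2.39 in pair 3 was the lowest among all 91 members there, and its mean difference of -0.85 ± 1.34 (SD, n = 3 pairs, limma adjusted p = 0.381) rested on that pair.

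Ndufv3, a small accessory subunit, was 1 of the 4 members with no overlap between the groups. It read 11.22, 11.23 and 11.29 in the wild type and 10.89, 10.94 and 9.97 in the CKO. Every CKO array lay below every wild type array, with differences of -0.34, -0.29 and -1.32, and the mean difference was -0.65 ± 0.58 (SD, n = 3 pairs, limma adjusted p = 0.367). Without pair 3 it was -0.32, with a 95% interval from -0.79 to 0.16. The accessory subunit Ndufa10 read 10.99, 11.04 and 11.03 in the wild type and 10.86, 10.91 and 9.18 in the CKO. Ndufb10 lay at 9.99 or above in the wild type and read 9.69, 9.89 and 8.03 in the CKO. By the dimmer probe set of Ndufa10 the differences were -0.26, 0.00 and 0.76. For both genes, by their brightest probe set, CKO 1 and CKO 2 lay just below the lowest wild type array and CKO 3 far below it.

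4 complex I genes lay within 0.3 of zero in pair 3, Ndufc1, Ndufs5, Ndufb1 and Ndufb4. Ndufb1 differed by 0.04 and Ndufb4 by 0.09 there, each by 1 dim probe set with a mean level of 6.02 and 4.70. Ndufc1 differed by -0.09, 0.11 and 0.00 in the 3 pairs, while its other probe set differed by -0.32, 0.08 and -1.18. Ndufs5, an accessory subunit on the intermembrane side, read 7.12, 6.99 and 6.95 in the wild type and 7.98, 7.44 and 7.08 in the CKO. It was higher in all pairs, by 0.86, 0.45 and 0.13 (limma adjusted p = 0.367), and without pair 3 its adjusted p was 0.547. A brighter probe set that the annotation assigns to Ndufs5 and its pseudogene together differed by 0.00, 0.06 and -1.63.

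The 8 Ndufaf assembly factors, which help to build complex I and are not part of the finished enzyme, had medians of -0.20, -0.05 and -0.55. Ndufaf1 read 7.69, 7.82 and 7.50 in the wild type and 6.94, 7.97 and 6.13 in the CKO. It was below the wild type range on CKO 1 and CKO 3 and above it on CKO 2. Ndufaf4 read 8.0, 8.26 and 8.53 in the wild type and 7.94, 8.11 and 9.02 in the CKO. It was highest on CKO 3, but its other probe set differed by -1.70, -0.38 and -1.24 in the 3 pairs.

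Complex II, which is also the succinate dehydrogenase of the citric acid cycle, is wholly nuclear encoded. Its catalytic flavoprotein Sdha read 10.81, 10.92 and 10.71 in the wild type and 10.57 on CKO 1 and 9.66 on CKO 3, and on CKO 2 it was higher than in its pair mate by 0.08. The iron-sulphur subunit Sdhb read 10.65, 10.70 and 10.63 in the wild type and 10.42, 10.74 and 8.83 in the CKO. The membrane anchor Sdhd read 10.35, 10.36 and 10.28 in the wild type and 10.07, 10.46 and 8.73 in the CKO. In these 3 genes CKO 1 was slightly below the wild type range, CKO 2 slightly above and CKO 3 far below. The other anchor, Sdhc, read 9.96, 10.16 and 10.20 in the wild type and 10.04, 10.35 and 10.34 in the CKO. Its groups overlapped and its differences were 0.08, 0.19 and 0.14, whereas its second probe set differed by -0.21, 0.10 and -1.14. The 4 subunits are needed in one complex, and in pair 3 the split between Sdhc and the other 3 was not shared by both Sdhc probe sets.

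Complex III had medians of -0.09, 0.06 and -1.45 over its 8 genes. The core proteins Uqcrc1 and Uqcrc2 had differences of -0.35, 0.05 and -1.36, and of -0.46, -0.04 and -1.80. Uqcrc2 read 10.71, 10.97 and 10.78 in the wild type and 10.25, 10.94 and 8.99 in the CKO, so that CKO 2 lay within the wild type range. The Rieske iron-sulphur protein Uqcrfs1 read 10.46, 10.38 and 10.38 in the wild type and 10.36, 10.54 and 8.84 in the CKO. The small subunit Uqcrq, with no overlap between groups, read 9.93, 9.79 and 9.73 in the wild type and 9.69, 9.68 and 8.89 in the CKO. Its mean difference was -0.40 ± 0.39 (SD, n = 3 pairs, limma adjusted p = 0.378). Its other 3 probe sets, with mean levels of 5.51 to 5.94, differed by 0.53 to 1.00 in pair 3. Another small subunit, Uqcr11, read 10.05, 10.04 and 9.98 in the wild type and 10.30, 10.24 and 9.32 in the CKO. It was higher on CKO 1 and CKO 2 and lowest on CKO 3.

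Cycs, which carries electrons from complex III to complex IV and triggers apoptosis when released, read 11.27, 11.27 and 11.94 in the wild type and 10.86, 11.28 and 9.75 in the CKO. The wild type array of pair 3 was the highest and CKO 3 the lowest. The mean difference was -0.86 ± 1.16 (SD, n = 3 pairs, limma adjusted p = 0.368). Of its 4 probe sets, the brighter 3 differed by -2.18, -1.53 and -1.44 in pair 3 and the dimmest by 1.24.

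Complex IV, cytochrome c oxidase, holds several subunits that exist as a general and a tissue-restricted form, and these forms are given side by side. Its 17 genes had medians of -0.05, 0.04 and -1.11. The general form Cox4i1 read 12.78, 12.77 and 12.77 in the wild type and 12.66, 12.88 and 10.81 in the CKO. Cox4i2, the form that is enriched in lung and favoured at low oxygen, read 7.17, 7.44 and 6.83 in the wild type and 6.71, 7.01 and 7.31 in the CKO. Cox4i2 differed by -0.47, -0.43 and 0.48, so it was lower in pairs 1 and 2 and higher in pair 3, and the groups overlapped (limma adjusted p = 0.753). The 12 pericyte and vascular smooth muscle markers, cells in which Cox4i2 is known to be expressed, had medians of -0.26, 0.07 and -1.19, with 8, 5 and 11 of 12 lower. The part of vascular cells in the Cox4i2 values was not tested.

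The forms known from heart and skeletal muscle were dim in these lungs. Cox6a1, the general form, read 12.88, 12.96 and 13.01 in the wild type and 13.01, 13.21 and 11.14 in the CKO. Its muscle form Cox6a2 read 7.30, 7.10 and 7.12 in the wild type and 7.82, 7.09 and 8.28 in the CKO. Cox6a2 was above the wild type range on CKO 1 and CKO 3 and just below it on CKO 2 (mean difference 0.56 ± 0.59, SD, n = 3 pairs, limma adjusted p = 0.367). Cox8a read 11.92, 11.90 and 11.74 in the wild type and 11.80, 11.97 and 11.11 in the CKO, while its muscle and brown fat form Cox8b read 6.54, 6.70 and 6.29 in the wild type and 7.34, 6.63 and 6.90 in the CKO. Cox7a2 read 12.63, 12.71 and 12.69 in the wild type and 12.55, 12.77 and 10.34 in the CKO, and its muscle form Cox7a1 read 6.15, 6.04 and 5.82 in the wild type and 6.14, 6.24 and 5.89 in the CKO. In pair 3 these 3 general forms differed by -2.35 to -0.63 and the 3 muscle forms by 0.07 to 1.16. Other genes with a mean level from 6 to 8 had a median of -0.10 in pair 3, with quartiles of -0.67 and 0.43. From 11 to 12 their median was -1.61 (quartiles -1.87 and -1.34), and from 12 to 14 it was -1.86 (quartiles -2.08 and -1.58). The part of brightness in the split was not tested. Of the forms known from testis, Cox8c differed by 0.57, 0.21 and 0.34, Cox7b2 by -0.04, 0.03 and 0.08, and Cox6b2 by -0.05, -0.09 and -1.11. The general form Cox6b1 differed by -0.09, 0.10 and -1.37, so it and its testis form were both lower in pair 3. For Cox8c a second probe set differed by -0.90, 0.45 and 0.00. Cox7a2l, which links complexes III and IV into supercomplexes, read 11.66, 11.86 and 11.75 in the wild type and 11.61, 11.69 and 10.02 in the CKO, lower in each pair and lowest on CKO 3.

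**Figure D4:**
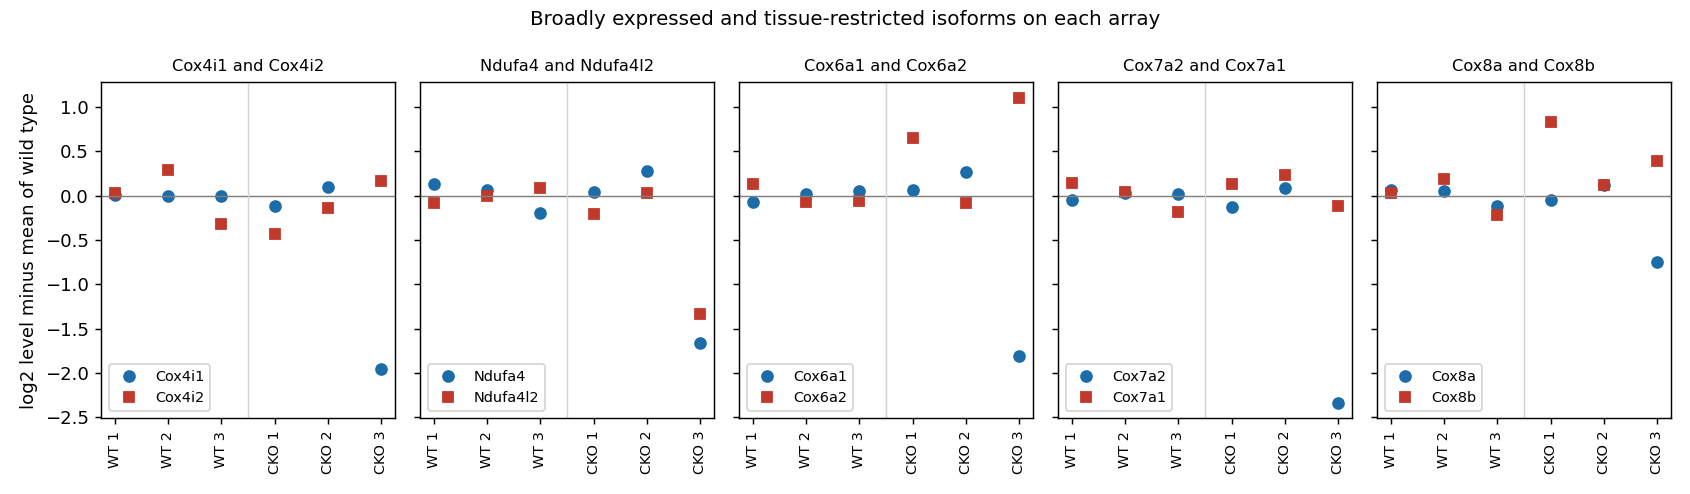
Level on each of the 6 arrays (WT, wild type) minus the mean of the 3 wild type arrays (log2), with general forms as blue circles and tissue-restricted forms, and Ndufa4l2, as red squares. CKO 3 is the lowest array for Cox4i1, Cox6a1, Cox7a2, Cox8a, Ndufa4 and Ndufa4l2, and another array is the lowest for Cox4i2, Cox6a2, Cox7a1 and Cox8b.

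Markers of muscle and brown fat were set beside these forms. The 9 skeletal muscle markers had medians of 0.21, 0.21 and 0.30 in the 3 pairs and the 10 cardiac markers -0.37, 0.28 and -0.45, with 0 of either list at an unadjusted limma p under 0.05. The heart myosin Myh6 read 9.80, 9.13 and 9.37 in the wild type and 9.24, 9.43 and 8.38 in the CKO. The 6 brown fat markers had medians of 0.37, 0.06 and 0.00, with 0, 2 and 3 of 6 lower. Ucp1, their heat-producing uncoupler, differed by 1.08, -0.02 and 1.09 at a level of 4.79 to 6.06 (limma adjusted p = 0.367). The fatty acid carrier Fabp4 differed by 0.60, 1.51 and -0.69, so the list had no shared direction in pair 3. The part of muscle or brown fat cells in these values was not tested.

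Cox7c, a small subunit with no tissue-restricted form on the list, was the member with the lowest unadjusted p. It read 6.82, 6.84 and 5.83 in the wild type and 4.99, 6.65 and 5.03 in the CKO. The differences were -1.84, -0.19 and -0.80 and the mean difference -0.94 ± 0.83 (SD, n = 3 pairs, limma adjusted p = 0.367). The groups overlapped, since CKO 2 was above the wild type array of pair 3. Its 2 single-gene probe sets had mean levels of 6.03 and 4.94, dim for an abundant subunit of the enzyme, so this measurement has little signal behind it.

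Ndufa4, named for complex I and now counted with complex IV, read 11.40, 11.33 and 11.08 in the wild type and 11.31, 11.54 and 9.61 in the CKO. Its relative Ndufa4l2, which is induced under low oxygen, read 9.70, 9.77 and 9.87 in the wild type and 9.57, 9.81 and 8.45 in the CKO. Both lay between -0.13 and 0.21 in pairs 1 and 2 and were lowest on CKO 3, and the difference of Ndufa4l2 in pair 3 was -1.42 (limma adjusted p = 0.401).

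Complex V, the ATP synthase, was even in pair 3. Its 17 genes had medians of -0.14, 0.07 and -1.53, and all 17 were lower by over 1.5-fold in pair 3. The catalytic subunits Atp5a1 and Atp5b read 12.36, 12.56 and 12.48, and 12.55, 12.62 and 12.57 in the wild type. In the CKO they read 12.42, 12.71 and 10.87, and 12.40, 12.68 and 10.51. Atp5g3, which encodes the c subunit of the rotating ring, read 12.97, 12.98 and 12.91 in the wild type and 12.86, 12.99 and 11.42 in the CKO. In each of these genes CKO 1 and CKO 2 lay within 0.15 of their pair mates and CKO 3 lay far below all other arrays. The mean difference of Atp5b was -0.71 ± 1.17 (SD, n = 3 pairs, limma adjusted p = 0.392). The same c subunit is also encoded by Atp5g1 and Atp5g2, which differed by -0.26, 0.09 and -1.05, and by -0.07, 0.01 and -1.76. The peripheral stalk subunit Atp5h differed by -0.17, 0.06 and -2.04 (limma adjusted p = 0.389), with CKO 3 lowest. Atp5j, also in the peripheral stalk, was lower in all pairs, by -0.30, -0.08 and -1.75 (limma adjusted p = 0.368).

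Probe sets of the same gene often disagreed on pair 3. Of the 91 members, 52 had several probe sets and 39 had 1, and in 20 of the 52 the mean differences of the probe sets differed in sign. The median range among probe sets of a gene was 0.25, 0.13 and 0.96 over pairs 1 to 3. It was over 1 in 6 genes in pair 1, 0 in pair 2 and 23 in pair 3. Ndufb6, an accessory subunit of complex I, differed by -0.49 in pair 3 by its brightest probe set and by -2.17 by the other.

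Promoters of these genes are known for binding sites of NRF1, of the ETS factor GABP and of YY1, which tie their output together. The RefSeq promoter windows (GRCm38.p6), from 250 bases before to 50 bases after a gene's start, were searched on both strands for a core of each: CGCATGCG for NRF1, CCGGAAGT for GABP, AAGATGGC for YY1. None of these 3 strings contains another, and TATAAA was counted beside them. A window was found for 75 members. The NRF1 core was in 11 of them (14.7%) against 2.07% of 27025 genes, the YY1 core in 10 (13.3%) against 3.19%, the GABP core in 5 (6.67%) against 4.31%, and TATAAA in 8 (10.7%) against 15.7%. At least 1 of the 3 cores was in 24 members (32%) against 9.03% of all genes. The NRF1 core was in 4 of 15 complex V genes and 1 of 32 complex I genes, and the YY1 core in 6 of 32 complex I genes and 3 of 15 complex V genes. A match is a run of letters and does not show that a factor binds there.

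The stretches below show the cores in members described here, chosen with their pair 3 values known, so they support no contrast between genes. All are from RefSeq, build GRCm38.p6, 5′ to 3′ in the direction of the gene, and capitals mark the core (NRF1 first, then YY1, then GABP, which lies on the opposite strand in Atp5h). Atp5j has 2 windows, and its stretches lie inside the RefSeq span of the gene (chr16:84827871-84835857), before an inner start.
Cycs, chr6:50566603-50566650, minus strand: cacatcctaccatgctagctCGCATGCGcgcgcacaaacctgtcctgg
Cox6a1, chr5:115349092-115349139, minus strand: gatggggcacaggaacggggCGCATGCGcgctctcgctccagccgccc
Atp5g2, chr15:102671061-102671108, minus strand: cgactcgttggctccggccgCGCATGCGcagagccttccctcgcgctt
Atp5k, chr5:108434421-108434468, minus strand: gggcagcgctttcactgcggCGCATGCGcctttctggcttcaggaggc
Atp5j, chr16:84835096-84835143, minus strand: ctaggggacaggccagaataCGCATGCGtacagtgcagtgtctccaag
Ndufaf4, chr4:24897951-24897998, plus strand: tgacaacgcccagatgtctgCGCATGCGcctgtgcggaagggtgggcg
Atp5j, chr16:84835037-84835084, minus strand: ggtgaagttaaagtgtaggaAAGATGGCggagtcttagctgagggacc
Uqcr11, chr10:80406860-80406907, minus strand: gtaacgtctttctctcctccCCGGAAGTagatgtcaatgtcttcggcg
Atp5h, chr11:115419931-115419978, minus strand: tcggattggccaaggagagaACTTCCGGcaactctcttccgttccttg

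The 11 members with the NRF1 core ranged from -2.18 (Cycs) to 0.49 (Ndufaf4, whose other probe set was at -1.24) in pair 3. The 5 with the GABP core ranged from -2.04 (Atp5h) to -0.63 (Cox8a), and Uqcr11, at -0.66, holds both cores. The 10 with the YY1 core ranged from -1.86 (Ndufs7) to 0.00 (Ndufc1). The factors themselves were also measured. Nrf1 read 7.35, 7.25 and 7.12 in the wild type and 7.28, 7.18 and 7.09 in the CKO, with differences of -0.07, -0.07 and -0.03. Gabpa read 9.88, 9.96 and 9.92 in the wild type and 9.28, 10.03 and 8.48 in the CKO. Yy1 read 11.24, 11.37 and 11.26 in the wild type and 10.97, 11.39 and 9.89 in the CKO. Gabpa and Yy1 were thus near the wild type on CKO 2 and lowest on CKO 3, as most members were.

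Genes that support the chain showed the same order of pairs. Over 19 regulators of mitochondrial biogenesis the medians were -0.30, -0.01 and -1.03, with 2 lower at an unadjusted limma p under 0.05, or 10.5%, and 0 higher. Over all genes 9.96% were lower and 4.96% higher, and the counts of the lists that follow are read beside these shares. Tfam, which packages mitochondrial DNA, read 8.53, 8.71 and 8.56 in the wild type and 7.94, 8.77 and 6.69 in the CKO. The coactivator Ppargc1a read 7.11, 7.26 and 6.90 in the wild type and 6.46, 7.65 and 5.50 in the CKO. Tfb2m, a mitochondrial transcription factor and 1 of the 2 lower genes, differed by -0.76 on average (limma adjusted p = 0.367).

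Over 38 assembly factors outside the Ndufaf family the medians were -0.21, 0.03 and -0.84, with 2 lower at an unadjusted limma p under 0.05 (Timmdc1 and Nubpl) and 1 higher (Lyrm7). The 76 genes of the mitochondrial ribosome had medians of -0.15, 0.02 and -1.12, with 1 lower and 0 higher. The 20 genes of mitochondrial protein import and carriers had medians of -0.14, 0.05 and -1.29, with 0 lower and 1 higher. That gene, Timm50, a receptor of the inner membrane, read 7.31, 7.30 and 8.04 in the wild type and 8.42, 7.51 and 9.66 in the CKO, higher in each pair (limma adjusted p = 0.367). The 17 genes of the citric acid cycle and pyruvate dehydrogenase had medians of -0.21, 0.10 and -1.38, and the 11 of coenzyme Q synthesis -0.25, 0.04 and -0.41, with 0 in either direction.

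The cytosolic ribosome and glycolysis, 2 lists outside the mitochondrion, were lower in pair 3 as well. Of the marker lists, skeletal muscle, brown fat and red blood cell precursors were not lower there, with medians of 0.30, 0.00 and 0.11. The other marker lists were. The 51 genes of the cytosolic ribosome had medians of -0.10, 0.01 and -1.88, and the 15 of glycolysis -0.08, 0.29 and -1.32. At an unadjusted limma p under 0.05, 1 ribosomal gene and 0 glycolytic genes were lower and 0 of either list were higher.

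**Figure D5:**
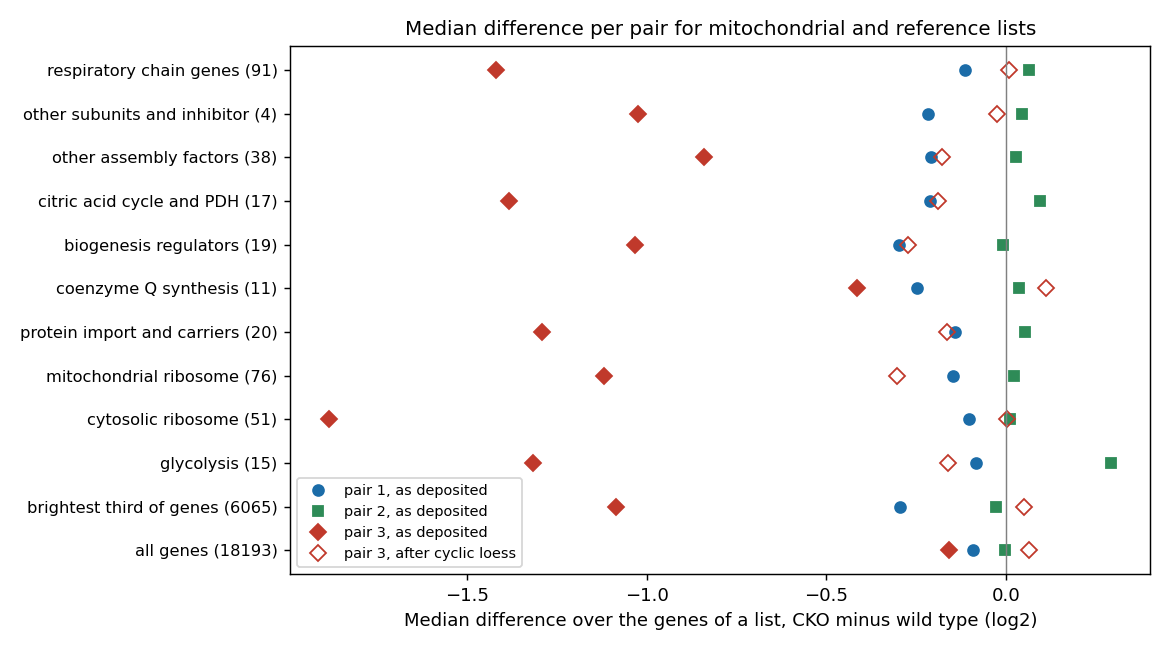
Median difference between CKO and wild type (log2, horizontal axis) in pairs 1, 2 and 3 as deposited, and in pair 3 after cyclic loess (open diamonds), for the respiratory chain genes, other mitochondrial and metabolic lists, the brightest band of genes and all genes, with the number of genes in brackets. In pair 3 the cytosolic ribosome lies at -1.88 and the respiratory chain at -1.42, and after loess both lie close to zero.

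The tissue label was checked against markers. The 13 lung epithelial markers had array medians of 11.91, 11.97 and 12.05 in the wild type and 11.16, 11.46 and 9.57 in the CKO. Sftpc, the surfactant protein of type 2 cells, read 14.46, 14.42 and 14.31 in the wild type and 13.95, 14.15 and 12.22 in the CKO. The epithelial markers had median differences of -0.21, -0.19 and -2.09, with 4 of 13 (30.8%) lower at an unadjusted limma p under 0.05. 2 of these 4 were far lower on every CKO array. Sftpa1, another surfactant protein, differed by -4.81, -4.35 and -6.34 (limma adjusted p = 0.102), and Aqp5, a water channel of type 1 cells, by -3.19, -3.11 and -2.86 (limma adjusted p = 0.0731). The 8 endothelial markers had medians of -0.72, -0.62 and -1.74, with 7 of 8 (87.5%) lower. In pairs 1 and 2 these endothelial medians were further below zero than those of any complex of the chain. In whole lobe RNA, fewer cells of a type and less RNA per cell cannot be told apart, and the part of cell makeup in the respiratory chain values was not tested.

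Normalizing the arrays against each other brought the members' median close to zero in pair 3 by loess and to -0.20 by quantile normalization. After cyclic loess across arrays the median difference of the members was 0.01 in pair 3, with middle 50% of members from -0.28 to 0.35 and the whole range from -1.14 to 1.61. In pair 3 the brightest band had medians of 0.05 after loess and -0.19 after quantile normalization, and all genes 0.06 and 0.00. The members' median of the mean difference over the 3 pairs was 0.06 after loess and 0.00 after quantile normalization, against -0.48 as deposited. For the brightest band these were 0.01, -0.07 and -0.48. After loess 6 members were higher at an unadjusted limma p under 0.05 (Ndufs5, Cox8c, Uqcr11, Cox6a2, Sdhc and Ndufa3) and 1 was lower (Cox7c), beside 8.82% and 6.25% of all genes, and 0 passed the adjusted threshold. Both methods assume that most genes are alike between arrays. Loess removes a trend shared by genes of like brightness, and quantile normalization gives all arrays the same distribution. They would thus also remove a difference shared by all genes, and most of one that the members share with other bright genes.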

How the data were processed

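The arrays were 6 Affymetrix Mouse430_2 chips. The authors deposited 1 linear intensity per probe set and array, made with RMA per the submitters' processing notes. The sources used here name no software, version or setting for it. The deposited arrays do not share 1 distribution. The upper quartile of intensity was 170.3 on CKO 3 and 222.3 on CKO 1, against 236.5 to 283.8 on the others. Whether quantile normalization was part of the RMA step is not given. The log2 of (value + 1) was analysed, so dim probe sets differ by slightly less than without the pseudocount. After leaving out 64 controls, 45037 probe sets remained, of which 34945 had 1 gene symbol, 932 several and 9160 none. RefSeq held 34741 of them, and all 91 members kept their symbols.

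The test was limma 3.58.1 (R 4.3.3, lmFit and eBayes, two-sided), pairs entering as a fixed block, and p-values were adjusted by Benjamini-Hochberg (threshold 0.05). The design text describes pairs, and deviations from group means correlated within pairs at 0.258, 0.604 and 0.597, against at most 0.215 otherwise. SDs are over pair differences. Exact permutation cannot go below 0.1, or 0.25 within pairs, so none was used. The number of arrays limits the precision. The alternatives were no block, pseudocount 16, a filter on dim probe sets, a mean-variance trend, probe set averaging, loess, quantile, and leaving out arrays or pairs.

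Members and gene lists were chosen with earlier results of these data known. Picked by rule were, in each class, the 3 members with the smallest p and those with the largest rise (or highest difference) and fall, isoform sets and core subunits. The rule gave 43 members, of which Ndufaf2, Ndufaf6 and Atp5md are not described above. Ndufa3, Ndufa10, Ndufb6, Ndufb1, Ndufb4, Ndufb10, Ndufc1, Ndufs7 and Atp5k, and single regulators and markers, were chosen after their values were seen. Probe sets with several symbols represent no member.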

Additional observations from a re-analysis of the deposited data

Results flagged for a closer look

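The control probe set for 18S ribosomal RNA, which is outside the gene comparisons, read 2887 on CKO 3, against 297.2 on the highest wild type array. On that array 76 of the 91 respiratory chain genes had their lowest value, beside 47.9% of all genes and 5456 of the 6065 in the brightest band. Whether the 18S signal and the lower gene values share a cause was not tested.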

How the results depend on the processing

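In all 11 alternatives, 0 members passed the adjusted threshold. The median over members of the mean difference was -0.48 as reported, with no replicate block -0.48, and -0.04 without pair 3, -0.02 without CKO 3 (unpaired), 0.06 after loess and 0.00 after quantile normalization. At an unadjusted p under 0.05, the 1 member lower became 2 with a mean-variance trend, 3 with probe sets averaged, 0 with no replicate block, 0 with a pseudocount of 16, and 0 to 13 on leaving out each pair. The 0 higher became 6 after loess, 2 after quantile normalization, 1 with probe sets averaged, 1 without CKO 3 (no replicate block), and 0 to 2 on leaving out each pair. Over all genes 9.96% were lower and 4.96% higher as reported, and 8.82% were higher after loess. On leaving out each pair, 1.76% to 18.7% of all genes were lower and 0.17% to 8.58% higher. The share over all genes was not taken for the other settings. Of the 43 members picked by rule, the mean difference changed sign in 18 after loess, 14 after quantile normalization, 9 without pair 3, 11 without CKO 3 and 3 with probe sets averaged. The cause was not tested. With 3 pairs the median member's 95% interval reached 0.81 either side of its difference, and dim probe sets such as those of Cox7c carry little signal.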

Other observations

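Besides the members, 10 probe sets carry the symbol of a respiratory chain gene together with that of another gene. The pair of probe sets shared by Ndufa13 and Yjefn3 differed by 1.17, -0.02 and 1.41, and by 0.73, 0.24 and 1.08 over the 3 pairs, and the one shared by Ndufb2 and Adck2 by 0.99, 0.05 and 0.76. These 3 had mean levels of 6.65, 5.74 and 6.50 and were higher at unadjusted limma p of 0.0364, 0.0258 and just under 0.05 (adjusted p = 0.367 for each). The brighter probe set of Ndufb4 and its copies differed by -0.24, 0.06 and -1.40, that of Ndufs6 and its copy by -0.24, -0.05 and -1.52, and that of Ndufab1 and its pseudogene by -0.39, 0.15 and -1.86. Which gene of each pair gave the signal cannot be told apart on these arrays.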
